A study of Sus scrofa with 70 samples.

Results

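The collagen genes of the boar reproductive tract were taken as every gene whose name in the merged annotation begins with COL and a digit, which gave 41 of the 35552 genes with RNA-seq values. Of these, 11 encode fibrillar chains, 6 encode chains of type IV collagen in basement membranes, and 24 belong to other types. The libraries came from 12-month-old boars of the Banna mini-pig inbred line (BMI) and of Diannan small-ear pigs (DSE), and covered the testis, the epididymis and 3 accessory glands, namely the vesicular, the prostate and the bulbourethral gland. For each of the 10 groups of breed and gland there were 3 RNA-seq and 3 small RNA libraries and 1 long-read Iso-seq library. The labels do not say whether libraries of a group came from separate boars, so p-values measure only the spread between these samples, and no boar was given a treatment that the labels name. Transcript values were given in TPM, a share of all transcripts corrected for length, and were summed by gene, so levels of different genes can be set side by side. TPM keep no sequencing depth, and no counting interval was computed for a low value.

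Collagens are secreted proteins in which 3 chains wind into a triple helix. Types I, III and V form the fibrils that give connective tissue its tensile strength, and type IV chains join into the sheet-like network of basement membranes under epithelia and around seminiferous tubules, vessels and muscle cells. Type VI forms beaded filaments, FACIT collagens sit on the surface of fibrils, types XV and XVIII are proteoglycans found at basement membranes, and some members span the plasma membrane. In male glands, fibroblasts, smooth muscle and peritubular cells make most of the interstitial collagen, and epithelial, endothelial and Sertoli cells contribute to the basement membrane.

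The miR-29 family is known to bind collagen mRNAs, and its mature sequences are shown because the same 8 letters recur across the fibrillar and type IV genes measured here. They were read from the RefSeq annotation of Sscrofa11.1, with bases 2 to 8, the seed, in capitals. The pig miR-29a entry is annotated from 1 base earlier than the others, so that its bases 3 to 8 are the bases 2 to 7 of miR-29b and miR-29c. miR-29a lies at chr18:18040083-18040105 (plus strand), miR-29b at chr18:18039679-18039701 and again at chr9:135019130-135019152 (both plus strand), and miR-29c at chr9:135019691-135019712 (plus strand).
ssc-miR-29a: cUAGCACCaucugaaaucgguua
ssc-miR-29b: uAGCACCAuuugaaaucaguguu
ssc-miR-29c: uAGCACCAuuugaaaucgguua

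The 8 letters TGGTGCTA, which pair with bases 1 to 8 of miR-29b and miR-29c, stood on the sense strand of the longest RefSeq 3′ UTR of 18 of the 39 collagen genes with such a UTR (46.2%). Over all 18749 genes with a 3′ UTR the share was 2.65%, and it was 2.58% in the 4188 genes whose UTRs were of similar length. The share was 63.6% of the fibrillar, 66.7% of the type IV and 31.8% of the other collagen genes. With a 7-letter match (TGGTGCT or GGTGCTA, both held by the 8 letters) also counted, it was 66.7% against 15.6% of all genes. A match describes the letters and is not evidence of binding. Sites of the 3 most abundant fibrillar chains and of 3 basement membrane chains are shown in 30 bases each, with the 8 letters in capitals. They lie at chr12:26379573-26379602 (COL1A1, minus strand), chr9:74210077-74210106 (COL1A2, plus), chr15:93595648-93595677 (COL3A1, plus), chr11:76859556-76859585 (COL4A1, minus), chrX:89182294-89182323 and chrX:89182577-89182606 (COL4A5, plus) and chrX:88636051-88636080 (COL4A6, minus). COL4A5 was the collagen gene with 2 such sites.
COL1A1: gggggaatcatTGGTGCTAcatggaagtgg
COL1A2: aagaatgtttaTGGTGCTAggagaatttga
COL3A1: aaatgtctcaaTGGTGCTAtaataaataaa
COL4A1: acatcacaacaTGGTGCTActccttccctt
COL4A5, first site: gctgccaccaaTGGTGCTActatacatgac
COL4A5, second site: attatttttcaTGGTGCTActaatcctact
COL4A6: ttcagtctactTGGTGCTActgtttgggtg

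Summed over the 41 genes, collagen TPM was lowest in the testis, at 397.3 to 556.4 with a median of 491.8 over 6 libraries. In the epididymis it was 1078 to 11800 with a median of 2038, above every testis library. The vesicular gland lay at 487.8 to 1985 (median 912.5), the prostate gland at 694 to 2386 (median 1341) and the bulbourethral gland at 610.1 to 3209 (median 1538), with much overlap among these 3. As a share of all transcripts, the medians ran from 0.0492% in the testis to 0.204% in the epididymis. TPM are relative to all RNA of a tissue piece, and in such bulk samples fewer cells of a type and less RNA per cell cannot be told apart.

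The classes differed in how they were spread over the glands. Fibrillar TPM was 84.3 to 160.2 in the testis (median 141), 367 to 8097 in the epididymis (median 1231), 124.9 to 899 in the vesicular gland (median 385.3), 123.5 to 1214 in the prostate gland (median 549.9) and 320.5 to 2203 in the bulbourethral gland (median 971.9). Fibrillar chains thus made up a median of 27.7% of collagen TPM in the testis (19.2% to 31.6%) and 59.4% in the bulbourethral gland (48.4% to 68.7%), ranges that did not overlap. The median was 60.2% in the epididymis, where the range of 25.1% to 68.6% overlapped that of the testis. Type IV TPM spanned less, with medians of 46.9 in the testis, 189.1 in the epididymis, 85.04 in the vesicular gland, 148.2 in the prostate gland and 85.2 in the bulbourethral gland. The other types held the largest share in the testis, at a median of 60.8% (51.9% to 71.0%) from 240.7 to 316 TPM, and 31.5% in the epididymis from a median of 794.9 TPM.

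**Figure D1:**
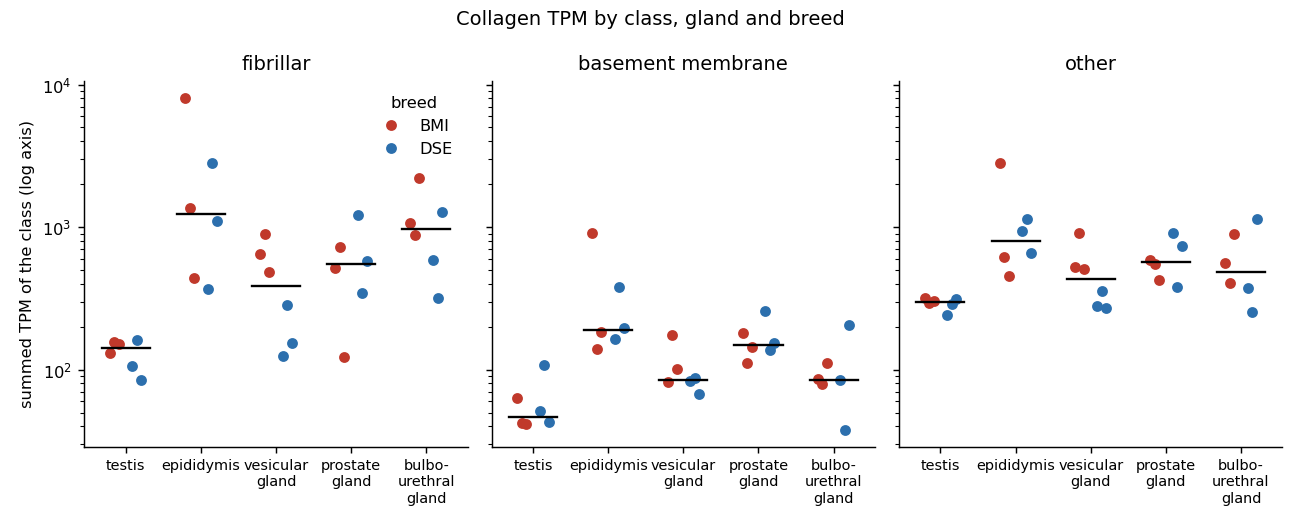
Summed TPM of fibrillar, basement membrane and other collagen genes in each of the 30 RNA-seq libraries (log axis), by gland and breed, with a line at the median of each gland. The testis libraries reach 160.2 TPM for the fibrillar class, under every epididymis and bulbourethral gland library, and the highest point of each class is the same BMI epididymis library, at 8097, 906.2 and 2800 TPM.

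Genes with at least 1 TPM in at least 3 of the 30 libraries were compared in limma, each gland against the mean of the other 4 on log2(TPM + 1), and a gene was called where the p adjusted by Benjamini-Hochberg was below 0.05 and the log2 difference reached 1. Of the collagen genes, 34 entered (9 fibrillar, 6 basement membrane and 19 other) among 19796 genes. COL22A1 entered only through its 6 testis libraries, COL25A1 through 3 of these and COL11A1 through its bulbourethral gland libraries, so counts over members that entered are descriptions. COL2A1, COL6A5, COL6A6, COL10A1, COL11A2, COL19A1 and COL26A1 did not enter. In the testis, 4 collagen genes were called higher and 18 lower, where 34.6% of all genes were called higher and 12.7% lower. In the epididymis, 17 were called higher and 1 lower, against 15.1% and 6.56% of all genes. In the bulbourethral gland, 8 were higher and 3 lower, against 8.45% and 12.0%. In the vesicular gland 1 was higher and 3 were lower, against 2.95% and 30.1%, and in the prostate gland 0 were higher and 4 lower, against 3.7% and 12.8%.

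The median log2 difference of the 34 collagen genes was −1.08 in the testis (0.31 over all genes), 1.04 in the epididymis (0.25), 0.17 in the bulbourethral gland (−0.05), 0.05 in the prostate gland (−0.28) and −0.46 in the vesicular gland (−0.69). Dividing TPM by size factors from the median of ratios moved the median of all genes to 0.13, −0.13, −0.20, −0.20 and −0.20 in that order of glands. The collagen medians became −1.27, 0.60, 0.04, 0.15 and 0.21, so the sign of the vesicular gland median changed with the scaling. The bulbourethral gland median changed sign on Ensembl transcripts alone, to −0.096 over 22 collagen genes (0.01 over all genes). With size factors the calls became 4 higher and 19 lower in the testis, 12 and 3 in the epididymis, 7 and 4 in the bulbourethral gland, 0 and 3 in the prostate gland and 4 and 3 in the vesicular gland. The shares of all genes called with size factors are not given, so these counts are descriptions. Over the 5 glands, 26 collagen genes were called in at least 1 gland, COL22A1 and COL25A1 among them. The share of all genes called in at least 1 gland is not given, so this count is a description. COL4A3, COL4A4, COL5A3, COL9A1, COL12A1, COL13A1, COL15A1 and COL27A1 were called in none.

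**Figure D2:**
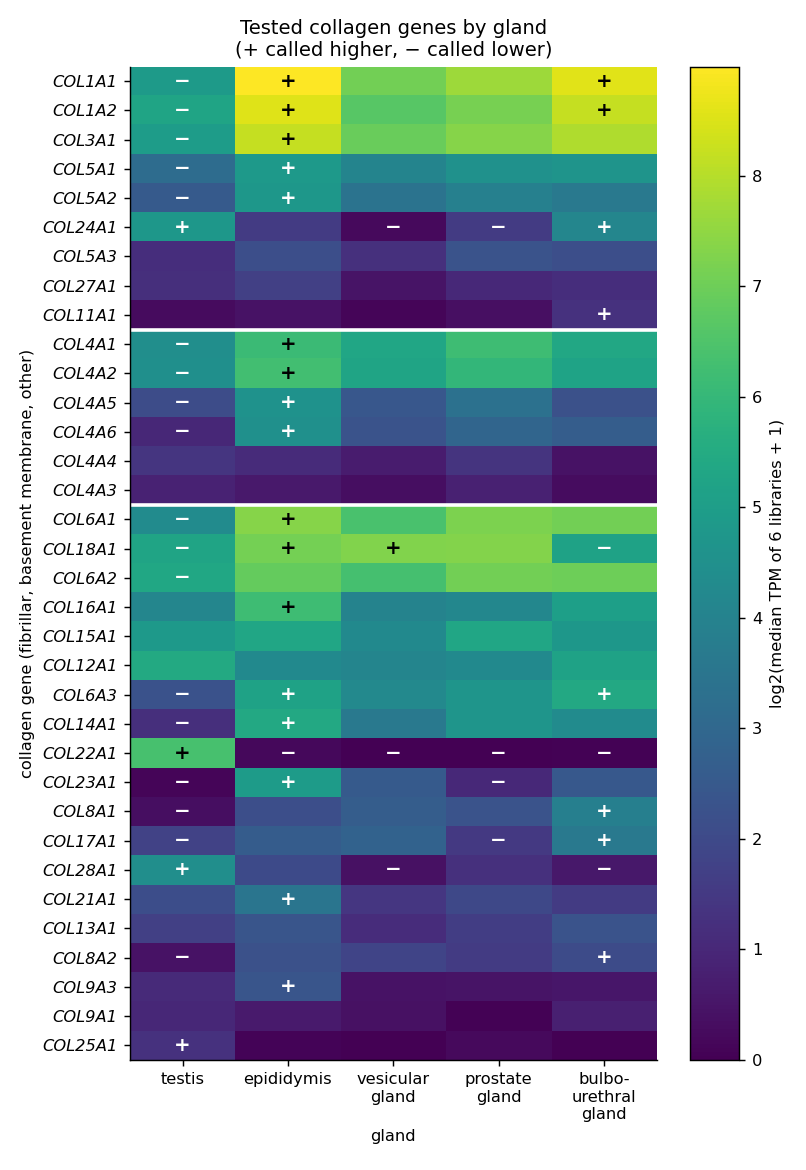
Median log2(TPM + 1) of the 34 collagen genes in each gland over 6 libraries, with + for a gene called higher and − for one called lower there by limma. The testis column holds 18 minus signs and the epididymis column 17 plus signs, and the 4 testis plus signs are COL22A1, COL24A1, COL25A1 and COL28A1.

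Type I collagen, the main protein of fibrils, is built from COL1A1 and COL1A2 chains, and type III, from COL3A1, runs with it in soft tissue. COL1A1 was at 11.7 to 38.7 TPM in the testis (median 28.6), 141.2 to 3427 in the epididymis (median 506.9), 45.9 to 332.4 in the vesicular gland (median 134.1), 34.8 to 503.8 in the prostate gland (median 203.9) and 110.2 to 1103 in the bulbourethral gland (median 382.9). The testis libraries lay below every epididymis, vesicular and bulbourethral gland library and overlapped the prostate gland. The log2 difference of the testis from the other glands was −3.32 (SE 0.49, adjusted p = 1.3e-06), that of the epididymis 2.12 (SE 0.49, adjusted p = 0.00075) and that of the bulbourethral gland 1.496 (adjusted p = 0.013). COL1A2 gave the same calls, at −2.22, 1.82 and 1.38, from medians of 36.7, 369.8 and 290.7 TPM. In the bulbourethral gland neither COL1A1 nor COL1A2 was called without BMI replicate 3, and COL1A1 was not called without DSE replicate 3. COL3A1 was called lower in the testis (−2.71, adjusted p = 2.1e-05; 12.5 to 41.9 TPM) and higher in the epididymis (1.97, adjusted p = 0.0013; 75.1 to 2386 TPM).

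Type V chains regulate the start and width of type I fibrils, and of these COL5A1 and COL5A2 were called in the same direction and COL5A3 in no gland. COL5A1 was at 5.86 to 9.37 TPM in the testis (log2 difference −1.45) and 16.2 to 202.2 in the epididymis (1.35), without overlap between these glands. COL5A2 was at 3.56 to 7.19 TPM in the testis (−1.45) and 14 to 122.3 in the epididymis (1.83). COL24A1, a minor fibrillar chain best known from developing bone, ran the other way. It was at 8.73 to 29.2 TPM in the testis (median 26.0) and 4.67 to 24.8 in the bulbourethral gland (median 16.5), where both were called higher at 2.52 and 1.69 on the log2 scale. In the vesicular gland it was at 0.0325 to 8.28 TPM with a median of 0.1715 (−2.21, adjusted p = 4.3e-06), the highest value being that of BMI replicate 2. COL11A1, a chain best known from cartilage, was called higher in the bulbourethral gland (1.18) at 0.596 to 7.69 TPM, above the highest value of 1.36 elsewhere in only some of its libraries. Outside this gland only BMI epididymis replicate 1 (1.36) and DSE prostate gland replicate 1 (1.32) reached 1 TPM. The gene thus entered the test only through the bulbourethral gland, and its difference there is a description.

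The type IV chains of the basement membrane are encoded in pairs whose starts face each other. COL4A1 and COL4A2, which together make the most common network molecule, had Ensembl starts 194 bases apart on chromosome 11, at 76997322 (minus strand) and 76997516 (plus strand). COL4A5 and COL4A6 began 1433 bases apart on chromosome X. On chromosome 15 the Ensembl starts of COL4A3 and COL4A4 lay 16389 bases apart, but long-read transcripts of COL4A4 (minus strand) began at 128611764 and 128611997, on either side of the COL4A3 start at 128611866 (plus strand). The shared start region of the first pair is printed because both genes had the same calls in every gland. It is chr11:76997270-76997569, plus strand, from the Sscrofa11.1 genome, 82.0% G or C, and its capitals mark CCAAT at base 167, CCGCCC at base 198 and GGGCGG at base 208. The letters searched on both strands were TATAAA, known as the TATA box, with the CCAAT box, the GC box GGGCGG, which reads CCGCCC on the other strand, and the cyclic AMP response element TGACGTCA, none of which contains another. The windows ran from 250 bases before to 50 after the start. In 40 collagen windows CCAAT was found in 37.5% (37.2% of 34261 genes and 34.8% of the 16529 genes tested that have a window), GGGCGG in 60% (33.6% and 58.2%), TATAAA in 20.0% (16.5% and 8.39%) and TGACGTCA in 0.0% (1.36% and 2.49%).
COL4A1 and COL4A2 start region: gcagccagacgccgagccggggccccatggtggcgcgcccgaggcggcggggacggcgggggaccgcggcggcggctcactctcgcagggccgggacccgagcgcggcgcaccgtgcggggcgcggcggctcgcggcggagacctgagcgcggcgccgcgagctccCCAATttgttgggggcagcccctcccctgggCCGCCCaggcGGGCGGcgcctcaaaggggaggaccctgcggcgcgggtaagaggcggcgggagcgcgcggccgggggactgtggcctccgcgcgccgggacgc

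COL4A1 was at 17.7 to 45.4 TPM in the testis (median 20.8), 48.7 to 400.5 in the epididymis (median 68.4), 33.8 to 71.8 in the vesicular gland (median 38.9), 50.9 to 119.8 in the prostate gland (median 72.1) and 19.3 to 100.6 in the bulbourethral gland (median 40.9). COL4A2 ran within 0.806 to 1.41 of it, as a ratio of COL4A1 to COL4A2, in all 30 libraries (median 1.10), while on Ensembl transcripts alone the median ratio was 0.293. Both were called lower in the testis (−1.28 and −1.23) and higher in the epididymis (1.12 and 1.31). COL4A5 and COL4A6 chains, found in the basement membranes of smooth muscle and some epithelia, set the epididymis apart more sharply. COL4A5 was at 18.6 to 73.0 TPM there, above the highest of 14.4 in the 24 other libraries (2.36, SE 0.29, adjusted p = 2.8e-07). COL4A6 was at 15.7 to 68.2 TPM there, above the highest of 10.8 elsewhere (2.62, SE 0.28, adjusted p = 4.1e-08). In the testis COL4A6 was at 0.610 to 2.78 TPM (−2.03, adjusted p = 5.2e-07) and COL4A5 at 1.87 to 7.74 (−1.16). COL4A3 and COL4A4, known from the filtering membranes of kidney and lung, had medians of at most 0.805 and 1.64 TPM in any gland and were called in none.

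COL6A1, COL6A2 and COL6A3 join into type VI beaded filaments around cells. COL6A1 was at 15.9 to 34.7 TPM in the testis, below all 24 other libraries, of which the lowest was at 39.5 (−2.64, adjusted p = 2.2e-07). In the epididymis it was at 107.8 to 888.8 TPM (1.41). COL6A2 was called lower in the testis (−1.53; 25.6 to 61.9 TPM) and missed the fold threshold in the epididymis at 0.93 (79.9 to 753.3 TPM). COL6A3 was at 2.10 to 5.14 TPM in the testis (−2.78), 25.8 to 201.4 in the epididymis (1.60) and 28.4 to 118 in the bulbourethral gland (1.40). All 3 chains therefore stood lowest in the testis by their medians.

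COL18A1, whose C-terminal fragment is endostatin, divided the glands in another order. It was at 126.3 to 198.3 TPM in the vesicular gland (median 155.5; 1.09, adjusted p = 0.00083) and 85.1 to 440.7 in the epididymis (median 136.6; 1.21, adjusted p = 0.00047), with a median of 158.8 in the prostate gland (0.86, below the fold threshold). The testis (20.5 to 43.1 TPM; −1.69) and the bulbourethral gland (21.5 to 78.9 TPM; −1.47) were called lower and did not overlap the vesicular gland. COL15A1, the related multiplexin, was called in no gland, with medians of 18.0 to 38.7 TPM. COL16A1, a FACIT chain, was called higher in the epididymis (1.87; 48.9 to 134.4 TPM).

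The membrane-spanning COL23A1 marked the epididymis. It was at 19.3 to 53.6 TPM there with a median of 29.3, above the highest of 11.07 in any other library (3.401, SE 0.25, adjusted p = 4.5e-11). In the testis it was at 0.0519 to 0.129 TPM, below all others, of which the lowest was 0.59 (−2.67). COL14A1, a FACIT chain of dense connective tissue, was at 7.94 to 170.7 TPM in the epididymis (1.89) and 0.462 to 3.62 in the testis (−2.99). COL21A1 (1.74; 2.38 to 47.9 TPM) and COL9A3 (1.55; 0.4825 to 7.85 TPM) were also called higher in the epididymis.

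The bulbourethral gland had calls of its own among short-chain and membrane types. COL8A1, a network-forming chain of vessel walls and Descemet's membrane, was at 3.06 to 44.0 TPM there (median 13.7; 1.70) and at 0.1545 to 0.524 in the testis (−2.49). The breeds did not overlap in the bulbourethral gland, with BMI at 3.06 to 7.34 TPM and DSE at 20.1 to 44.0 (BMI minus DSE −2.08, adjusted p = 0.19), and the BMI median of 6.93 was near those of the BMI vesicular gland (6.56) and epididymis (6.15), so the high values of this gland were those of DSE. COL8A2 was at 1.84 to 19.6 TPM (1.10). COL17A1, the collagen of hemidesmosomes, was at 4.77 to 58.2 TPM (median 11.3; 1.42). The highest of these COL17A1 values belonged to DSE replicate 3, whose skeletal muscle marker sum was 1948 TPM against a median of 20.8 in this gland; the part of that difference in the calls was not tested. Without that library 5 collagen genes were called higher in place of 8. Those were COL1A2, COL6A3, COL8A1, COL11A1 and COL24A1. Without BMI replicate 3 there were 4, COL8A1, COL17A1, COL6A3 and COL24A1.

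Unlike most collagen genes, COL22A1 had its highest level in the testis. This FACIT chain is known from junctions of muscle and tendon and was at 24.9 to 90.4 TPM in the testis with a median of 81.3, while no other library exceeded 0.617. The log2 difference was 5.97 (SE 0.17), and 5 of the 6 testis libraries lay at 67.6 TPM or above, the lowest being DSE replicate 2. The estimates of the 4 remaining glands were −1.28 to −1.61, in contrasts that each have the testis among the other glands. Since the gene entered the test only through its testis libraries, these are descriptions, and no p is given for them. COL28A1, a chain associated with peripheral nerve, was at 8.74 to 33.1 TPM in the testis (median 20.7; 3.19, adjusted p = 1.1e-08), with 1 epididymis library, DSE replicate 2, at 21.1. COL25A1, a membrane-spanning chain known from brain and muscle innervation, was at 0.508 to 3.19 TPM in the testis, just above the highest of 0.504 elsewhere. Its log2 difference of 1.18 is likewise a description, since 3 testis libraries let it enter.

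For COL22A1 and COL28A1, the transcripts behind the testis values were short and began inside the genes. Of COL22A1, the long-read transcript PB.12890.5 at chr4:4156896-4246462 (plus strand, susScr11) held 22.6 to 85.0 TPM in the testis (median 75.04), or 91.3% of the gene's value. It has 32 exons and 1853 bases, starts 87820 bases downstream of the Ensembl transcript and has a predicted open reading frame of 534 amino acids. The Ensembl transcript, with 64 exons and 6232 bases, held a median of 6.17 TPM, or 8.7%. On Ensembl transcripts alone the log2 difference of COL22A1 in the testis was 2.74. The long reads gave 35 COL22A1 reads in the BMI testis, 29 in the DSE testis and 0 in the 8 other libraries. These are reads of the whole gene, over 5 isoforms with a median length of 2998 bases. The reads of PB.12890.5 alone are not given, so its share rests on TPM. The 250 bases before and 50 after the start of PB.12890.5, chr4:4156646-4156945 (plus strand, 63.3% G or C), are shown as the region where most COL22A1 RNA of the testis was annotated to begin, and held none of the 4 motifs searched.
COL22A1 testis start region: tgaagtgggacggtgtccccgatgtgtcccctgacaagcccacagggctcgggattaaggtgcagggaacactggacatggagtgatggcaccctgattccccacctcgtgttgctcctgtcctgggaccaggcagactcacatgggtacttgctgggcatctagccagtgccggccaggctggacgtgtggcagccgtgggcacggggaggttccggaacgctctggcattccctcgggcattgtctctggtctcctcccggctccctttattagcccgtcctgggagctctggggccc

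COL28A1 showed the same pattern in TPM, with PB.20044.3 (6 exons, 1251 bases, start 134763 bases downstream, open reading frame of 277 amino acids) at a median of 19.7 TPM in the testis, or 95.7% of the gene. The Ensembl transcript of 34 exons was at 0.916 TPM. Long reads of COL28A1 were few, 7 over all libraries and both isoforms, with 0 in the BMI testis and 3 in the DSE testis. They do not show the pattern seen in TPM. COL24A1 split between glands: PB.14020.46, with 23 exons and a start 46776 bases downstream, was at 9.22 TPM in the testis and 3.16 in the bulbourethral gland. PB.14020.43, with 61 exons over 6548 bases, was at 0.219 TPM in the testis and 11.2 in the bulbourethral gland. The gene total was thus called higher in both glands with unlike shares of these transcripts. COL12A1, a FACIT chain called in no gland by its total, did likewise. PB.617.72 (35 exons, 6015 bases) gave 12.5 TPM or 32.2% of the testis value, and PB.617.103 (4 exons, 2594 bases) gave 0 TPM in the testis and 11.3, 7.16, 8.33 and 19.8 in the epididymis, vesicular, prostate and bulbourethral gland. On Ensembl transcripts alone 22 collagen genes entered. COL24A1 and COL28A1 were then not called higher in the testis, and COL22A1 and COL25A1 again entered through that gland.

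**Figure D3:**
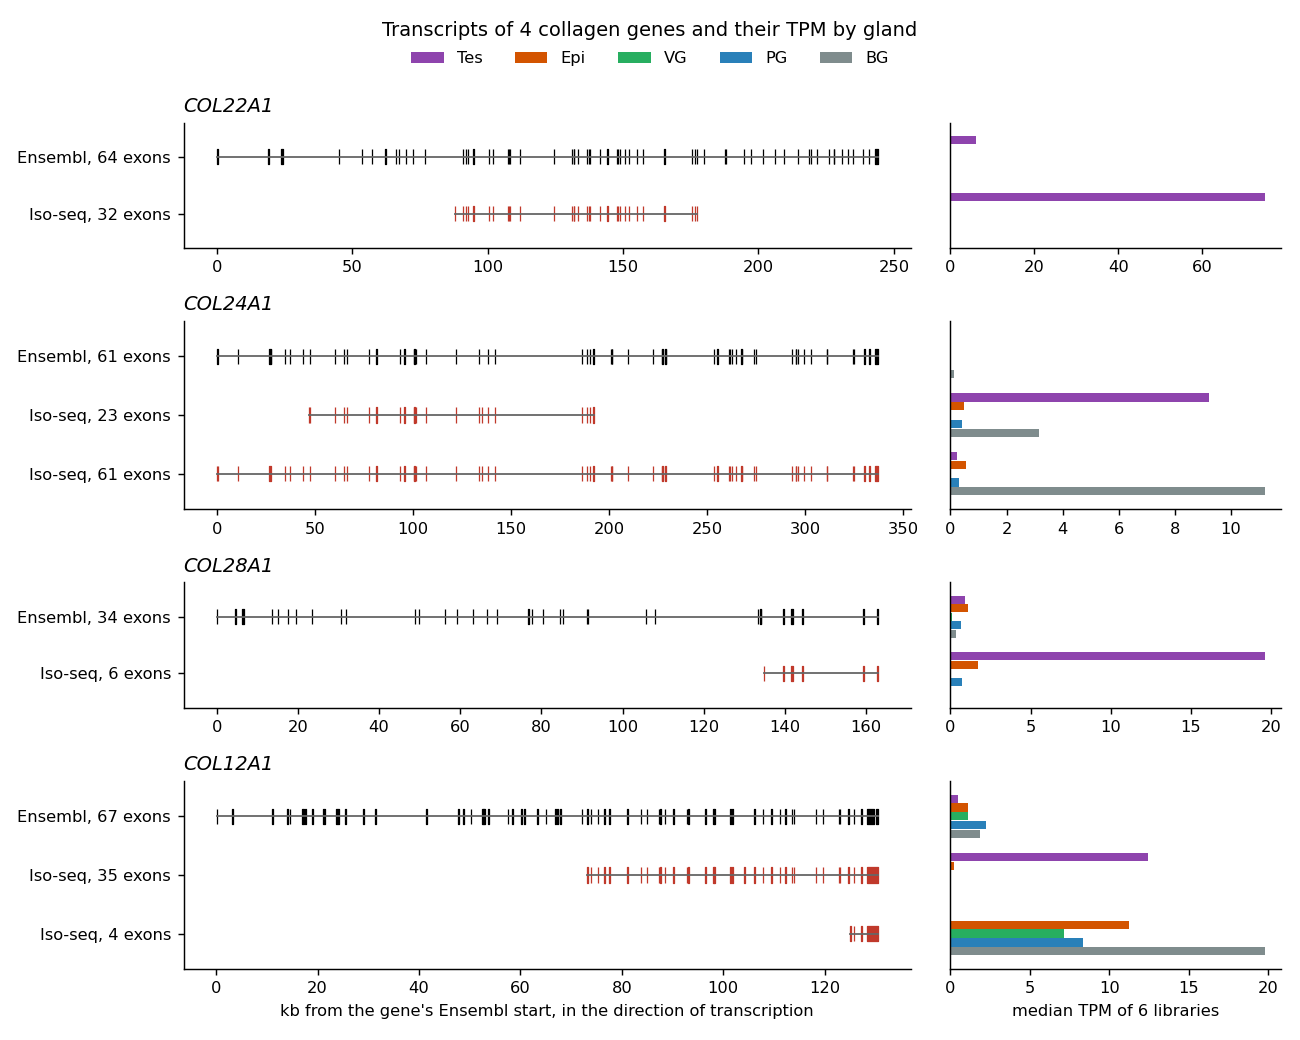
Exons of the leading transcripts of COL22A1, COL24A1, COL28A1 and COL12A1, in kb from the start of the Ensembl transcript, and beside each the median TPM in the 5 glands (bars from 0, 6 libraries per gland). The testis bars of COL22A1 and COL28A1 belong to short transcripts that start 87820 and 134763 bases downstream.

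The order of levels was resolved in few places. For 12 genes, the 4 most abundant of each class, the glands were ranked by median and the neighbours in rank compared with limma, which gave 10 calls in 48 pairs. COL1A1, COL3A1, COL4A6 and COL6A1 differed between the testis and the vesicular gland ranked next to it (4 of 9 such pairs, with 52.9% of all genes called between these glands). COL4A5 and COL4A6 differed between epididymis and prostate gland (2 of 5, against 21.3%), COL4A1 and COL16A1 between epididymis and bulbourethral gland (2 of 7, against 21.4%), COL6A2 between epididymis and vesicular gland (1 of 2, against 36.5%) and COL18A1 between epididymis and testis (1 of 1, against 51.0%). No neighbouring pair was called between prostate and vesicular gland (0 of 7, against 14.8%), prostate and bulbourethral gland (0 of 8, 7.65%), vesicular and bulbourethral gland (0 of 5, 27.7%), testis and bulbourethral gland (0 of 3, 49.1%) or testis and prostate gland (0 of 1, 48.9%). Glands that were not neighbours in rank were not compared in this way. Neighbours were picked by the medians of these same values, so they tend to lie close, while the shares cover all genes without such a choice. The counts therefore do not show that collagen genes differ less than other genes between these glands.

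Ratios of chains within a library do not depend on its scaling. COL1A1 to COL1A2, which enter type I collagen as 2 chains to 1, stood at a median of 0.620 in the testis (0.460 to 0.947) and at medians of 1.40 to 1.49 in the other glands, where the lowest library was at 0.951. Within the testis the 3 BMI libraries lay at 0.728 to 0.947 and the 3 DSE libraries at 0.460 to 0.513, without overlap. COL6A1 to COL6A2 was 0.416 to 0.747 in the testis and at least 0.8285 elsewhere. COL4A5 to COL4A6 was 2.41 to 4.01 in the testis (median 3.02), at most 2.03 elsewhere, and had its lowest median in the bulbourethral gland at 0.8065. COL4A1 to COL1A1, a ratio of basement membrane to fibril, had medians of 1.26 in the testis, 0.379 in the prostate gland, 0.331 in the vesicular gland, 0.145 in the epididymis and 0.135 in the bulbourethral gland. COL3A1 to COL1A1 was 1.05 in the testis and 0.5915 in the bulbourethral gland by medians. COL4A3 to COL4A4 ran from 0.2615 to 1.45 over all libraries (median 0.592), from low values of both genes.

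**Figure D4:**
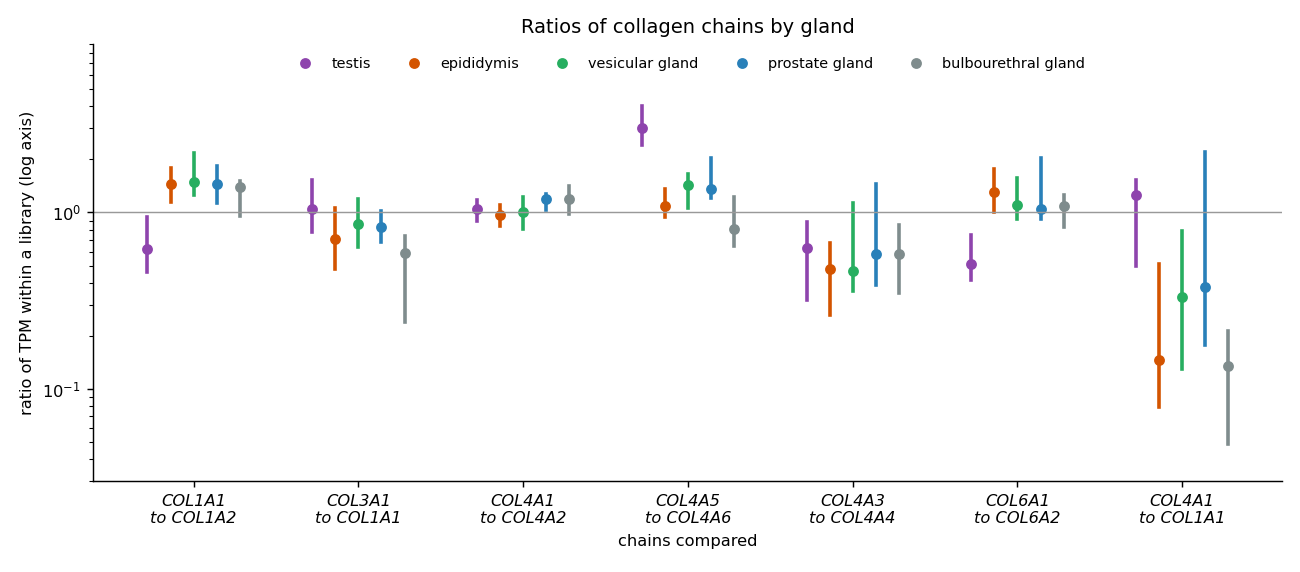
Ratio of TPM of 7 pairs of collagen chains within a library, by gland (log axis), with the median of 6 libraries as a point and a line from the lowest to the highest. The testis lies below the other glands for COL1A1 to COL1A2 (0.460 to 0.947) and COL6A1 to COL6A2 (0.416 to 0.747), and above them for COL4A5 to COL4A6 (2.41 to 4.01).

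The breeds were compared within each gland, 3 libraries against 3. In the vesicular gland the fibrillar sum was 484.4, 647.8 and 899 TPM in BMI and 124.9, 154.7 and 286.3 in DSE, in ascending order, and the sum of the other types was 507.2, 523.3 and 909.3 against 271.3, 280.2 and 358.4. Both classes were higher in every BMI library, while the basement membrane sums overlapped, at 82.1, 101.4 and 176.1 in BMI and 68.0, 82.8 and 87.3 in DSE. COL4A1 to COL1A1 was 0.130 to 0.230 in BMI and 0.4325 to 0.780 in DSE. The breeds were also apart in this ratio in the testis (0.496 to 1.12 against 1.39 to 1.52) and the bulbourethral gland (0.0485 to 0.109 against 0.161 to 0.212). Of 24 collagen genes tested there, 4 were called higher in BMI, against 0.954% of the 12585 genes tested. No collagen gene was called there with no filter on low values, in 1 fit of all libraries or on Ensembl transcripts alone. The median difference, BMI minus DSE, was 0.86 on the log2 scale against 0.42 over all genes, all 24 estimates were positive, and 14 had an unadjusted p below 0.05, as had 18.4% of all genes.

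COL1A1 was at 294.2, 332.4 and 171.9 TPM in BMI replicates 1 to 3 and 45.9, 96.2 and 47.8 in DSE (2.09, SE 0.33, adjusted p = 0.0092). COL3A1 was at 188.0, 273.8 and 156.6 against 33.7, 86.3 and 56.9 (1.85, SE 0.33, adjusted p = 0.02). COL1A2 was at 135.9, 216.2 and 120.0 against 29.9, 77.0 and 37.3 (1.76, SE 0.34, adjusted p = 0.028). In all 3 every BMI library lay above every DSE library, as it did for COL6A1, at 125.1, 224.2 and 107.6 against 52.6, 60.9 and 39.5 (1.51, SE 0.30, adjusted p = 0.03). COL14A1 (1.71, adjusted p = 0.077), COL6A2 (1.51, adjusted p = 0.068), COL6A3 (1.36, adjusted p = 0.083) and COL5A1 (1.36, adjusted p = 0.086) did not pass. After division by size factors, 22 of 24 estimates were positive with a median of 0.39 (−0.03 over all genes), and COL3A1 alone was called (1.32, adjusted p = 0.043), with COL1A1 at 1.55 (adjusted p = 0.052), COL1A2 at 1.23 (adjusted p = 0.07) and COL6A1 at 0.97 (adjusted p = 0.16). Without BMI replicate 2 COL1A1 was the 1 gene called, without DSE replicate 1 there were 2 and without DSE replicate 2 there were 8.

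Cell type markers of these libraries are given beside these values. The summed fibroblast markers were 318.3, 1032 and 429.5 TPM in the BMI vesicular glands and 142.3, 450.5 and 150.2 in the DSE ones, which overlap, with a list median of 1.26 and 0 of 7 genes called. Epithelial sums were 1251 to 1455 in BMI and 816.2 to 1078 in DSE, endothelial sums 102.5 to 171.6 and 75.7 to 124.5, smooth muscle sums 652.5 to 4566 and 1185 to 2416, and skeletal muscle sums 0.554 to 2.705 and 4.56 to 18.1. Schwann cell sums were 1.76 to 4.56 in BMI and 0.465 to 2.90 in DSE, and germ cell sums 0.0201 to 0.894 and 0.0230 to 0.943. The part of these in the collagen difference was not tested.

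**Figure D5:**
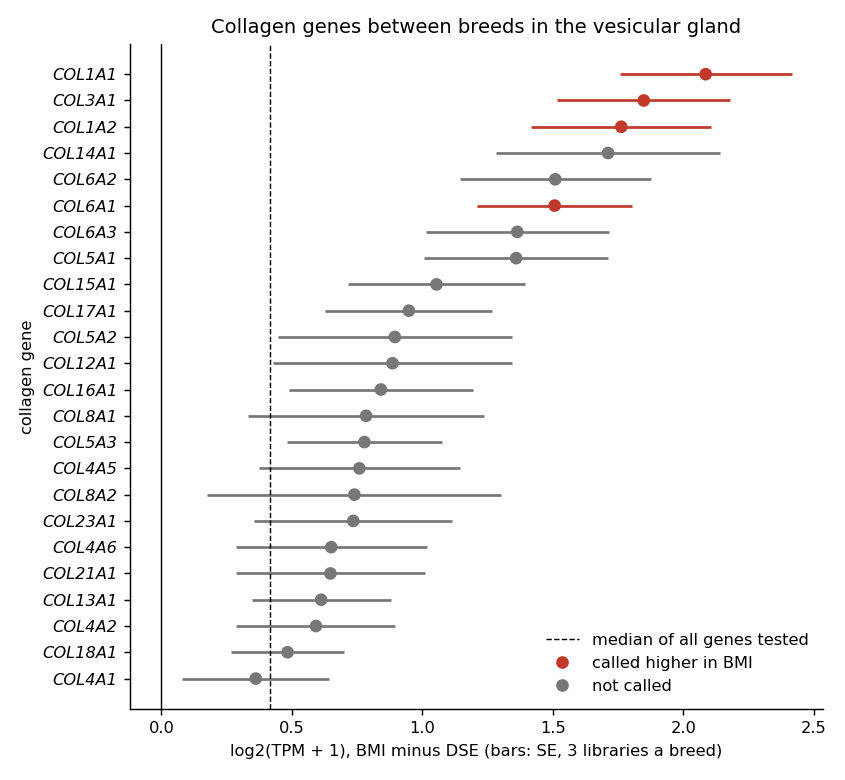
Difference of BMI and DSE in the vesicular gland, log2(TPM + 1), for the 24 collagen genes tested, with the SE of the limma fit as bars and a dashed line at the median of all genes (0.42). The 4 genes called, COL1A1, COL3A1, COL1A2 and COL6A1, are in red, at 1.51 to 2.09.

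In the other glands no collagen gene was called between the breeds, where 0.619% of all genes were called in the testis, 0.0% in the epididymis, 0.343% in the prostate gland and 0.0219% in the bulbourethral gland. In the prostate gland most estimates had the opposite sign, though not more often past an unadjusted p than over all genes. Of 28 collagen genes tested, 4 had a positive BMI minus DSE estimate and 7 an unadjusted p below 0.05 (33.6% of all genes), with a median of −0.65 against −0.39 over all genes. With size factors 11 of 28 estimates were positive and the median was −0.25 (0.00 over all genes). The lowest adjusted p there was 0.084, for COL28A1, and without BMI replicate 2 there were 3 calls. Over all glands no collagen gene was called (0.384% of all genes), with 26 of 34 estimates positive and the lowest adjusted p, 0.34, for COL1A1. In a test of whether the breed difference itself differed between glands, 2.94% of all genes and 0 collagen genes passed, the lowest unadjusted p being 0.0053 for COL9A3 (adjusted p = 0.12). The breed difference of the vesicular gland is therefore not shown to differ from that of other glands. On the first principal component of all genes within glands (28.7% of the variance), DSE epididymis replicate 1 lay lowest at −98.5 and BMI epididymis replicate 1 at 73.5. Without both, 4 collagen genes passed that test, COL5A3, COL14A1, COL21A1 and COL28A1. The share of all genes that passed in that smaller fit is not given, so this count is a description.

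Genes that act on collagen were taken from 6 lists, of which 66 of 69 genes entered. In the testis 5 were called higher and 35 lower, and in the epididymis 28 higher and 1 lower, with medians of −1.05 and 0.83 (0.31 and 0.25 over all genes). Over all genes 34.6% were higher and 12.7% lower in the testis, and 15.1% and 6.56% in the epididymis. With size factors, where the share of all genes is not given, the epididymis counts were 11 higher and 3 lower. The vesicular gland had 5 higher and 13 lower (2.95% and 30.1% of all genes), the prostate gland 2 and 3 (3.7% and 12.8%) and the bulbourethral gland 12 and 1 (8.45% and 12.0%). Both prostate gland counts, the higher calls of the testis and the lower calls of the epididymis, vesicular and bulbourethral gland are at or under these shares. Without BMI epididymis replicate 1, the higher calls in the epididymis fell to 17. Of 10 fibril-binding proteins, 8 were lower in the testis (median −1.86; fibronectin, FN1, at −4.53) and 6 were higher in the epididymis (median 1.26), where periostin (POSTN) was at 3.02 and osteoglycin (OGN) at 2.07. Of 7 breakdown genes, 5 were lower in the testis and 4 higher in the epididymis, where the metalloprotease inhibitor TIMP1 was at 53.6 to 848.2 TPM (median 158.5; 3.05) and the collagen-cutting cathepsin CTSK at 1.61. Of 7 receptors, 5 were lower in the testis (ITGA2 at −1.62) and 4 higher in the epididymis (ITGA1 at 1.48, DDR2 at 1.38).

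Of 18 enzymes and chaperones that modify and fold the chains, 7 were lower in the testis (median −0.36; P3H3 at −2.01). In the epididymis 5 were higher, P3H2 at 2.41 and COLGALT2 at 1.56 being the largest, and PLOD2, a lysyl hydroxylase, was lower at −1.55. Among genes of propeptide removal and cross-linking, BMP1, the C-propeptide protease, was higher in the testis (2.45; 36.5 to 78.2 TPM) with PCOLCE2 (1.85), while its enhancer PCOLCE was lower there (−1.56) and higher in the epididymis (1.20), as was the cross-linking oxidase LOX (1.28). Of 13 basement membrane partners, 7 were lower in the testis (LAMA5 at −3.32) and 3 higher, among them the laminin chains LAMB1 (1.71) and LAMA1 (1.70), while 12.7% of all genes were lower there and 34.6% higher, so the higher calls are under the share of all genes. In the epididymis 6 were higher, led by LAMB2 (1.86) and NID1 (1.77). In the vesicular gland, 1 of 62 such genes was called between the breeds, SPARC, higher in BMI, a share near the 0.954% of all genes.

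The tissue labels were checked against markers. The germ cell sum was 23380 to 101400 TPM in the testis and at most 0.943 in the vesicular gland, and the epididymis, which stores sperm, reached 933.8 (median 79.9). Epithelial markers stood at 14.98 to 42.3 TPM in the testis against medians of 1164 to 2810 elsewhere. In the testis 6 of 7 fibroblast, 7 of 7 smooth muscle and 8 of 8 epithelial markers were called lower, and in the epididymis 4, 7 and 7 were called higher, where 12.7% of all genes were lower in the testis and 15.1% higher in the epididymis, so these lists moved in the same glands as the collagen genes; their part in the collagen differences was not tested. Of 7 germ cell markers, 7 were called higher in the testis and 4 lower in the epididymis. Of 8 endothelial markers, 1 was lower in the testis and 1 higher in the epididymis, of 4 Schwann cell markers 1 was higher and 2 lower in the testis and 2 were higher in the epididymis, and of 5 skeletal muscle markers 0 were called in the testis and 2 were higher in the epididymis. In the bulbourethral gland, 7 of 7 smooth muscle markers were called lower, with a sum of 214.9 TPM at the median against 2306 in the vesicular gland and 1998 in the prostate gland. BMI epididymis replicate 1 held 2352 TPM of fibroblast, 14900 of smooth muscle and 798.9 of skeletal muscle markers. Without it and DSE epididymis replicate 1, 14 collagen genes were called higher in the epididymis in place of 17.

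Mature miR-29, whose sequences are given above, was measured in RPM, a share of reads, in separate small RNA libraries. miR-29a-3p was at 802.5 to 1714 RPM in the testis (median 1246), 246.9 to 580.3 in the epididymis (median 512.9), 277.1 to 1020 in the vesicular gland (median 416.8), 404.2 to 1035 in the prostate gland (median 673.5) and 217.3 to 429.6 in the bulbourethral gland (median 361.1). It was called higher in the testis (1.46, adjusted p = 4.34e-07), as was the other arm, miR-29a-5p (1.21), at 0.770 to 5.51 RPM. miR-29b was higher in the vesicular gland, at 74.6 to 230.9 RPM (1.49), and miR-29b (−1.08) and miR-29c (−1.14) were lower in the epididymis, where miR-29b was at 8.77 to 38.2 RPM and miR-29c at 5.37 to 25.6.

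Of the 5 table entries of the family, 2 were called in the testis, 3 in the epididymis, 2 in the vesicular gland and 0 in the prostate and bulbourethral glands. Of these entries 2 are the same mature miR-29b with nearly equal values, so the vesicular gland calls are 1 miRNA and those of the epididymis are miR-29b and miR-29c. Over all miRNA entries 63.3%, 15.6%, 32.5%, 13.9% and 26.6% were called in these glands, in that order. The median of all entries in the testis was 1.34 on the log2 scale and 0.09 after division by size factors, and with size factors 0 entries of the family were called in the testis and 0 in the epididymis. Relative to the other miRNAs, the testis value of miR-29a-3p was therefore close to the median. No relation between miR-29 and collagen levels was tested.

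Long reads gave 336 isoforms of 35 collagen genes from 24527 full-length reads, 0.707% of all reads, in 10 libraries of 231413 to 458697 reads with no replicates. COL1A1 had 7466 reads, COL1A2 5728, COL3A1 4524 and COL18A1 2019. Collagen isoforms had a median of 34 exons and 4442 bases, against 9 exons and 3316 bases over all isoforms. By comparison with Ensembl, 67.0% used at least 1 splice site outside the annotation (50.2% of all isoforms), and 1.49% matched an annotated transcript in full (6.54%). Isoforms with a non-canonical junction made up 34.8% (13.7% of all), those marked for template switching of the reverse transcriptase 11.9% (6.38%), and those predicted for nonsense-mediated decay 41.1% (20.1%). Of the collagen isoforms, 42.3% rested on 2 reads (38.6% of all). These shares describe isoforms with more exons than most, and a comparison at equal exon number was not made.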

How the data were processed

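RNA-seq, small RNA and Iso-seq libraries of 5 glands from BMI and DSE boars were used. The submitters' processing notes name GSNAP, STAR 2.7.10a, Salmon 1.9.0 and Bowtie 1.3.1, with susScr11 (Sscrofa11.1) as the build. Iso-seq counts are full-length reads per isoform, deposited by the authors after clustering, collapsing and SQANTI3, without normalization. The TPM were made by the authors with Salmon on Ensembl transcripts merged with Iso-seq isoforms, and were summed here by gene. The RPM are the authors' miRDeep2 values, deposited with 2 decimals. The labels name rRNA depletion and the study's methods poly-T beads for RNA-seq, and which was used is not known here. Salmon divides reads among overlapping transcripts, so the split between a short and a long transcript of a gene is an estimate.

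Genes of 1 TPM or more, and miRNAs of 1 RPM or more, in at least 3 libraries were fitted as log2(value + 1) in limma 3.58.1 with trend (R 4.3.3), glands in 1 fit of 10 groups and breeds within a gland. Fold changes on this scale understate those of low genes. Calls required a Benjamini-Hochberg adjusted p below 0.05 over all genes tested and a log2 difference of 1 or more (no fold for the interaction). The members, classes and lists were chosen with earlier results of these data known. Named genes were the 4 most abundant of each class, up to 3 called higher per gland with all libraries above the others, the largest lower call, breed calls up to 3 per direction, chains of the 7 ratios and, of each list, the 2 largest and the smallest difference; COL6A1 in the breeds and other members called were chosen after their values were seen. In simulated data, planted log2 differences of 1, 2 and 4 were called for 45.5%, 98.5% and 99.5% of genes in the epididymis and 0%, 40% and 85.5% between the breeds in the vesicular gland. Both simulations used 19796 genes, while the breed test of the vesicular gland had 12585.

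Alternatives were a pseudocount of 0.1, no filter, median-of-ratios size factors, no trend, Ensembl transcripts alone, each breed alone, 1 fit of all libraries, a replicate block and leaving out each library. Libraries of the same number, same breed and different glands had a median correlation of 0.041 (21 of 60 over 0.1). For different numbers of the same breed it was −0.026 (18 of 120 over 0.1), so libraries of the same number were slightly more alike. The labels give no pairing, and numbers were not taken to pair samples, though shared boars are not excluded. Left out were 5 joined or antisense labels that hold a collagen name. TIMP2, LAIR1, LAMA2, THY1, SYNM, MYH2, DAZL and S100B matched no symbol, and DCN and LUM stand in both the fibroblast and the fibril-binding list. Sequences and UTRs were read from RefSeq and the Sscrofa11.1 genome (Python 3.11.15).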

Additional observations from a re-analysis of the deposited data

Results flagged for a closer look

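In 50 sets of 6 libraries, class sums and chain ratios per gland, the value farthest from the others was tested for its gap by Dixon's ratio. It stood apart in 10, where chance gives about 1 in 20 for independent normal values. These sums and ratios are skewed and share libraries, so that rate is only a guide.

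BMI epididymis replicate 1 had the highest sum of all 3 classes, at 8097 TPM for fibrillar (the others 367 to 2833), 906.2 for basement membrane (140.5 to 377.9) and 2800 for other collagens (457.2 to 1147). DSE testis replicate 2 held 107.7 TPM of basement membrane collagen (the others 41.5 to 63.0), and DSE testis replicate 1 held 240.7 TPM of other collagens (288.5 to 316). BMI vesicular gland replicate 2 held 176.1 TPM of basement membrane collagen (68.0 to 101.4).

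The ratio of COL1A1 to COL1A2 was 2.165 in BMI vesicular gland replicate 1 (1.25 to 1.54 in the others). COL4A3 to COL4A4 was 1.125 in DSE vesicular gland replicate 1 (0.361 to 0.607), from values of both genes near or under 1 TPM. BMI prostate gland replicate 3 had COL6A1 to COL6A2 at 2.033 (0.923 to 1.17) and COL4A1 to COL1A1 at 2.196 (0.176 to 0.608). Its fibroblast markers summed to 81.9 TPM and its smooth muscle markers to 221, against medians of 457.6 and 1998 in this gland.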

How the results depend on the processing

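Of the recomputed calls of single genes none changed sign, and with size factors the breed differences of COL4A1 and COL18A1 in the vesicular gland, which were not called, went from 0.36 and 0.48 to −0.17 and −0.05. Of the counts and ratios, 175 values under other settings stayed the same and 41 moved, and 971 stayed and 19 moved when a library was left out. For single genes, 112 stayed, 14 weakened and 12 moved, and 401 stayed and 4 weakened without a library. On Ensembl transcripts alone, with 22 collagen genes tested, calls became 2 higher and 11 lower in the testis, 8 and 0 in the epididymis, 0 and 0 in the vesicular gland, 1 and 0 in the prostate gland, 2 and 0 in the bulbourethral gland, 0 between the breeds in the vesicular gland, 5 neighbouring pairs, 2 and 23 list genes in the testis, and a COL4A1 to COL4A2 ratio of 0.293. With size factors they became 3 lower in the epididymis, 4 higher in the vesicular gland, 1 between the breeds there, 11 and 3 list genes in the epididymis and 0 miR-29 entries in the testis and in the epididymis. With a pseudocount of 0.1 they became 2 higher and 9 lower in the vesicular gland, 7 lower in the bulbourethral gland and 2 list genes lower in the epididymis. In BMI alone, 1 was higher in the prostate gland and 3 in the bulbourethral gland; in DSE alone, 0 were higher and 14 lower in the vesicular gland, 2 and 2 in the prostate gland and 3 and 5 in the bulbourethral gland. Between the breeds in the vesicular gland there were 0 calls with no filter, 2 with no trend and 0 in 1 fit of all libraries, and the adjusted p of COL1A1 ranged from 0.00021 to 0.34 over the alternatives. Without both epididymis libraries that stand apart, a choice made after the data were seen, 2 were lower in the epididymis, 1 higher in the prostate gland and 4 passed the interaction test. The cause of these changes was not tested. Shares of all genes called under each alternative or without a library are not given in this section, so its counts are descriptions.

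With the replicate number as a factor, the breed calls in the vesicular gland became 9. This factor matches BMI and DSE libraries of the same number, a pairing of different boars that the labels do not give. Within a gland such libraries had a median correlation of −0.042 (4 of 15 over 0.1), against 0.019 (10 of 30) for other numbers. The block correlation of breed and number over all libraries, 0.0272, was not used for these calls. Leaving out each library gave 1 to 2 lower in the epididymis, 0 to 1 higher in the prostate gland, 4 to 9 higher in the bulbourethral gland, breed calls of 0 to 1 in the testis, 1 to 8 in the vesicular gland and 0 to 3 in the prostate gland, 0 to 1 interaction calls, 17 to 36 list genes higher and 1 to 2 lower in the epididymis, and 0 to 3 miR-29 entries in the epididymis (0 without DSE replicate 2). The TPM carry no depth, and planted breed differences of log2 1 were not recovered, so absent breed calls say little on small differences.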
